A study of Mytilus coruscus with 2 samples.

Results

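The solute carriers examined here were the genes nearest to Nrf2 ChIP-seq peaks in the digestive gland of the hard-shelled mussel Mytilus coruscus whose database names place them in a solute carrier (SLC) family. A peak was taken when its Swissprot or KEGG text held "solute carrier", or "slc" followed by a digit, in any letter case. This gave 67 of the 3465 peaks and 55 of the 2548 nearest genes, spread over 24 SLC families and 14 substrate groups. Peak heights and positions played no part in the choice.

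Solute carriers are membrane proteins that move amino acids, sugars, vitamins, ions, metals and other small molecules across the plasma membrane and the membranes of organelles. Most are driven by ion gradients or by the gradient of the substrate itself, and none hydrolyses ATP to power transport. Nrf2 is a transcription factor that in mammals binds antioxidant response elements near genes of glutathione synthesis, detoxification and redox balance, and some mammalian SLC genes, among them the cystine transporter SLC7A11, are known targets. The digestive gland of a bivalve takes up and stores nutrients and metabolises xenobiotics.

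The series held 1 chromatin immunoprecipitation (ChIP) library made with a custom antibody against Nrf2 and 1 input library, which is chromatin DNA taken without selection. Both came from digestive gland tissue, with no treatment given in the labels and no further genotype or age. How many animals stood behind each library is not given in the sources used here. With 1 library of each kind there was no replicate, so no test was run. The interval of a pileup or fold covers counting error of the ChIP pileup only, with the input background taken as known. Intervals of shares and medians treat the peaks as separate draws, although some genes had more than 1 peak. None of the intervals covers the spread between animals or immunoprecipitations.

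The deposited list was a single set of peaks called by the authors on the ChIP library against the input, each assigned to 1 nearest gene. Fold enrichment is the ChIP pileup (the number of fragments stacked at the summit) plus 1, divided by the input background plus 1. The lowest −log10 q in the list was 1.32, and the median over all peaks was a pileup of 16 and a fold of 4.63. Total reads per library are not held in the list, so depth enters only through the pileup. Positions are on the authors' unpublished M. coruscus genome, 1-based. Distances run from the transcription start site (TSS) to the summit, negative when upstream, and a nearest gene is not thereby a regulated gene.

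Names were first set against the protein domains listed for the same genes. A domain of a transporter family stood in the InterPro column for 46 of the 55 genes, which carried 58 of the 67 peaks. Both databases named a solute carrier for 41 genes, KEGG alone for 13 and Swissprot alone for 1. The best database match reached an E value of 1e-20 or lower for 51 of the 55. Among the 9 genes without such a domain, M.coruscus_chr5_2834 (named SLC15A5 by KEGG at an E value of 7e-10) listed only an integrase domain. M.coruscus_chr8_2662 carried the name of the vesicular amine transporter VMAT2 in Swissprot, but a mannose receptor name in KEGG and a C-type lectin domain. Genes of this kind are called below by the database name they matched.

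Most solute carrier peaks lay inside introns. There were 38 of 67 intron peaks (56.7%, Wilson 95% interval 44.8 to 67.9), against 44.9% of all peaks. Promoter classes, which reach 3 kb upstream of the TSS, held 12 of 67 (17.9%, 10.6 to 28.7), against 7.24% of all peaks, and the share within 1 kb was 3 of 67 (4.48%, 1.53 to 12.4), against 2.42%. Intergenic peaks were 14 of 67 (20.9%, 12.9 to 32.1), against 40.5% of all peaks. The interval of the solute carrier promoter share lay above the share of all peaks, and that of the intergenic share lay below it, whereas the interval of the 1 kb share held the value of all peaks. These comparisons describe the peaks of 1 library and are not a test of enrichment. The 12 promoter peaks lay at 10 genes, and the solute carrier peaks are themselves part of all peaks. Exons held 2 solute carrier peaks (2.99%), against 5.25% of all peaks, and the downstream class held 1 (1.49%), against 2.14%.

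A solute carrier has by its choice a gene with a database name, whereas many other peaks lay next to genes without one. Over the 2643 peaks whose gene had a Swissprot or KEGG name, 6.55% were in promoter classes, 52.4% in introns and 33.4% intergenic. The intron share of the solute carriers held this value within its interval. The promoter interval lay above the share of named genes too, and the upper bound of the intergenic interval, 32.1%, lay just under 33.4%. With 1 peak per gene, the interval of the solute carriers held 33.4% (25.5%, 15.8 to 38.3). So did the intervals with folds of at least 4 (20%, 10.5 to 34.8) and without the gene with most peaks (22.6%, 13.96 to 34.4, a setting chosen after seeing the data). The 33.4% was left over all 2643 named peaks in each case, so the gap between sets reduced alike was not tested. Gene lengths are not held in the list, so their part in the intron and intergenic shares was not tested. Carriers that the name rule may have missed, described at the end, are not in these shares.

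**Figure D1:**
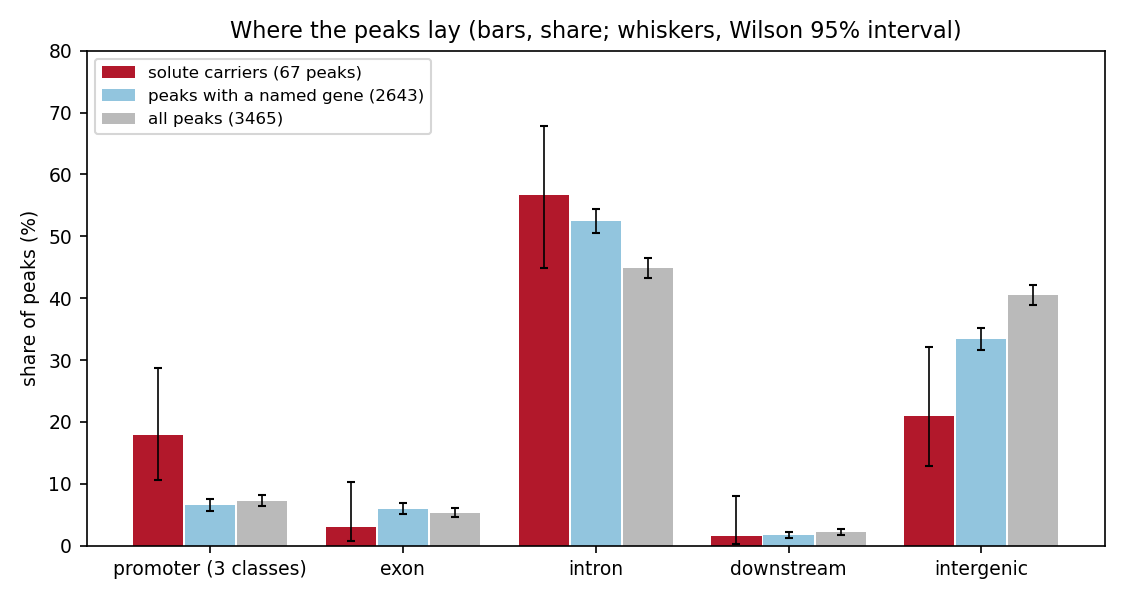
Share of peaks (%) in each region class for the 67 solute carrier peaks (left bar), the 2643 peaks whose nearest gene has a database name (middle) and all 3465 peaks (right), with Wilson 95% intervals as whiskers. Promoter classes hold 17.9% of the solute carrier peaks against 7.24% of all peaks, and intergenic sequence holds 20.9% against 40.5%.

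In strength the solute carrier peaks lay close to the middle of the list. Their median fold was 4.36 (95% interval 3.96 to 4.82), against 4.63 over all peaks, and their folds ranged from 2.08 to 9.81. The median pileup was 17, against 16, and the median length was 322 bp, against 311 bp. A fold of at least 7 was reached by 9 of 67 (13.4%), against 10.5% of all peaks. The counting interval of the fold held the all-peak median for 53 of the 67, lay above it for 7 and below it for 7. The same was not counted over all peaks, so whether these numbers are usual for the list is not known. At the lowest input background in the list, 1.48, stood 14 of 67 peaks (20.9%), against 24.5% of all peaks, and for these the fold rises with the pileup alone. The median distance to the TSS, regardless of side, was 16964 bp, against 15384 bp.

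The 12 promoter peaks belonged to 10 genes of 8 families, and 10 of the 12 stood at genes with a transporter domain. Their median fold was 4.16, against 4.53 over all promoter peaks, and 5 of the 12 lay above that value.

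The highest promoter fold at a gene with a transporter domain was that of SLC35E2 (M.coruscus_chr13_0083, chromosome 13). SLC35 proteins are relatives of the nucleotide sugar transporters of the Golgi and endoplasmic reticulum, and the substrate of SLC35E2 is not settled. Its nearer peak, at 3686804 to 3687117, had its summit 517 bp upstream of the TSS with a pileup of 45 (counting interval 32.8 to 60.2) and a fold of 8.44 (6.21 to 11.2), which ranked 173 among the 3465 peaks. A weaker peak at 3687424 to 3687794 had its summit at −1332 bp with a pileup of 21 and a fold of 4.83 (3.07 to 7.26). The gene ran on the minus strand, and the summits were 815 bp apart. Another member of the family, SLC35B4 (M.coruscus_chr1_3581), which carries UDP-xylose and UDP-N-acetylglucosamine, had the weakest promoter peak. Its pileup of 41 at −2463 bp was close to that of SLC35E2, but the input background there was 16.01 and the fold 2.47 (1.79 to 3.33). The last family member, named Slc35d3 in Swissprot and a UDP-galactose and UDP-glucose transporter in KEGG (M.coruscus_chr10_0788), had an intergenic peak at −7069 bp with a fold of 4.43.

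Amino acid and peptide carriers held 4 of the 12 promoter peaks on 3 genes. The gene matched to SLC7A5 (LAT1, the light chain of a large neutral amino acid exchanger; M.coruscus_chr4_0370, chromosome 4) had a peak at 14931488 to 14931855 with its summit at −749 bp, a pileup of 10 and a fold of 3.96 (2.09 to 6.98). A second peak at 14930906 to 14931141 had its summit at −1424 bp, a pileup of 12 and a fold of 3.84 (2.13 to 6.49). Both folds lay below the median of all promoter peaks, and with 10 and 12 fragments both intervals held it. SLC15A1 (PEPT1, the proton-coupled carrier of di- and tripeptides in the mammalian intestine; M.coruscus_chr14_0447) had peaks on both sides of its TSS. The upstream one at −2737 bp had a pileup of 36 and a fold of 3.74 (2.65 to 5.14), and the intron one at 2370 bp had a pileup of 17 and a fold of 4.84 (2.93 to 7.58). The order of these folds was opposite to that of the pileups, because the background was higher upstream (8.90) than in the intron (2.72).

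The gene with the SLC15A5 name (M.coruscus_chr5_2834, chromosome 5, 121893738 to 121894164) had the highest fold of all 67 peaks, 9.81 (6.92 to 13.5), with a pileup of 35 at −1967 bp. This is the gene whose only listed domain is that of an integrase. The remaining amino acid carrier, of family SLC38 (sodium-coupled neutral amino acid transporters; M.coruscus_chr10_0403), had an intron peak 51420 bp from the TSS with a fold of 7.36 (4.90 to 10.7).

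The other promoter peaks stood at genes of varied substrates, 1 peak each. A gene named SLC22A15-like in Swissprot (M.coruscus_chr10_0572) had a fold of 6.85 (4.09 to 10.9) at −1881 bp with a pileup of 16, at the lowest input background of the list, 1.48. No transporter domain was listed for this gene, which matched family SLC22 at an E value of 1e-10 in Swissprot and 5e-68 in KEGG. SLC25A3 (M.coruscus_chr1_1272), which imports phosphate into mitochondria for ATP synthesis, had the promoter peak nearest to a TSS, at −304 bp, with a pileup of 11 and a fold of 4.36 (2.36 to 7.51). The sodium/calcium exchanger named Slc8a2 (M.coruscus_chr8_0023), which extrudes calcium in exchange for sodium, had a pileup of 16 and a fold of 4.63 (2.77 to 7.35) at −2714 bp. SLC32A1 (M.coruscus_chr1_3630), the carrier that loads GABA and glycine into synaptic vesicles, had a fold of 3.95 (2.39 to 6.19) at −1517 bp. A sodium- and chloride-dependent glycine transporter, SLC6A5 in Swissprot (M.coruscus_chr13_0198), had a fold of 3.46 (1.82 to 6.10) at −1759 bp. Of these 5 peaks, the fold of SLC22A15-like and that of Slc8a2 were above the median of all promoter peaks, and each of the 5 intervals held that median.

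**Figure D2:**
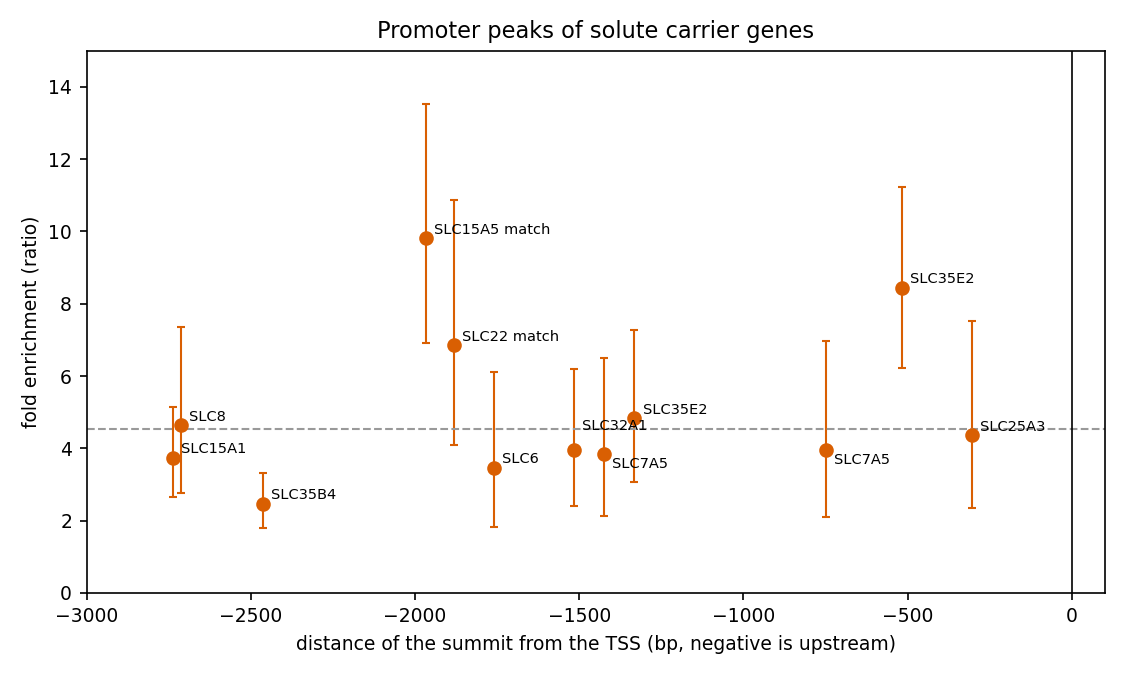
Fold enrichment (ratio) of the 12 promoter peaks of solute carrier genes against the distance of the summit from the TSS (bp), with 95% counting intervals as bars and the median of all promoter peaks (4.53) as a dashed line. SLC35E2 at −517 bp (8.44) and the SLC15A5 match at −1967 bp (9.81) lie with their whole interval above the line, and SLC35B4 (2.47) lies below it.

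Intron peaks held 7 of the 10 highest folds and 56.7% of all solute carrier peaks. Their median fold was 4.20, against 4.84 over all intron peaks. Within 5 kb of the TSS lay 4 of the 38 (10.5%), against 15.6% of all intron peaks. At 5 to 25 kb lay 15 (39.5%), against 45.1%, and 19 (50%) lay at 25 kb or more, against 39.3%. The median over the 14 intergenic peaks was 4.26, against 4.48 over all intergenic peaks. Of these 14, 9 lay upstream of the TSS and 5 beyond the gene, and the same was not counted over all intergenic peaks. Over all region classes, 31.3% of solute carrier peaks lay upstream, against 30.9% of all peaks.

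Zinc carriers of family SLC39 (ZIP proteins, which bring zinc into the cytoplasm) had 3 peaks, all in introns. The gene matched to SLC39A10 (ZIP10 in Swissprot and ZIP6 in KEGG; M.coruscus_chr4_0414, chromosome 4) had the highest fold of any solute carrier with a transporter domain. Its peak at 16596790 to 16597213, with the summit 17316 bp from the TSS, had a pileup of 23 (14.6 to 34.5) and a fold of 9.67 (6.28 to 14.3), higher than that of 97.2% of all peaks. The input background there was the lowest of the list, 1.48. The nearer SLC35E2 peak had a taller pileup, 45, but a background of 4.45 and so a lower fold. A second peak in the same gene, 4899 bp farther in, had a pileup of 18 and a fold of 7.03 (4.32 to 10.9). The other ZIP gene, SLC39A6 (M.coruscus_chr2_2894), had a fold of 4.09 (2.36 to 6.67) at 46864 bp, and its interval overlapped those of both peaks of the first gene.

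The sodium-coupled family SLC5, placed with the sugar and polyol carriers, had 4 peaks on 4 genes and none in a promoter. The gene matched to SLC5A11, a sodium/myo-inositol cotransporter (M.coruscus_chr13_1186, chromosome 13, 54057178 to 54057655), had an intron peak at 37835 bp with a pileup of 21 and a fold of 8.87 (5.64 to 13.3). The high-affinity choline transporter CHT1 (M.coruscus_chr9_1232), which takes up choline for acetylcholine synthesis, had an exon peak at 91890 bp with a fold of 7.26 (4.39 to 11.4). The peaks of SLC5A11 and CHT1 both stood at the lowest input background of the list, 1.48. Both genes named SLC5A6 in Swissprot, the sodium-dependent multivitamin transporter, had intron peaks of lower fold, 4.84 and 3.67, although KEGG named the second of them a monocarboxylate transporter.

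Monocarboxylate and dicarboxylate carriers (SLC16 and SLC13) differed widely within the group. The 2 genes named SLC16A14 in Swissprot, the second of which KEGG named a monocarboxylate transporter of another member number, had intron peaks at similar distances, 9621 bp and 9178 bp, but folds of 7.92 (5.04 to 11.9; M.coruscus_chr2_0031) and 2.78 (1.89 to 3.95; M.coruscus_chr13_0843). These intervals did not overlap. The pileup was lower at the first gene, 21, than at the second, 29, and the input background was 1.78 at the first and 9.79 at the second. Genes named SLC13A3, a sodium-dependent dicarboxylate carrier, had an intron peak of 5.04 (M.coruscus_chr7_1410) and an intergenic peak of 2.55 (M.coruscus_chr7_0774).

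Carriers of inorganic cations formed the group with the most genes alongside the neurotransmitter carriers, with 12 peaks on 9 genes (7 in introns, 4 intergenic, 1 in a promoter). Sodium/proton exchangers of family SLC9, which set cytoplasmic and organelle pH, had intron peaks at a gene named Na(+)/H(+) exchanger beta (M.coruscus_chr3_2884, fold 6.20), at Slc9c1 (M.coruscus_chr6_1114, 4.32) and at Slc9a9 (M.coruscus_chr3_3249, 3.79 and 3.58). The 2 neighbouring genes M.coruscus_chr8_0022 and M.coruscus_chr8_0023 both matched a sodium/calcium exchanger, and their peaks lay 1779 bp apart.

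Neurotransmitter and vesicle carriers had the most peaks, 13 on 9 genes, and none exceeded a fold of 5.24. The limit depends on grouping by family number, since the choline transporter CHT1, with 7.26, was counted with family SLC5. The group also holds M.coruscus_chr8_2662 and M.coruscus_chr5_0313, which had no transporter domain listed. The gene with the most peaks of all 55 was the vesicular glutamate transporter SLC17A8 (VGLUT3 in Swissprot, VGLUT2.2 in KEGG; M.coruscus_chr8_0352, chromosome 8). Its 5 intron peaks lay 12652 to 23526 bp from the TSS, over 10874 bp, with folds of 3.34 to 4.01, all under the all-peak median. Input backgrounds there ranged from 4.59 to 12.5, well above the lowest in the list. The highest fold of the group, 5.24 (2.90 to 8.85), was at a glycine transporter gene named slc6a9 (M.coruscus_chr6_0497), in an intron 162339 bp from the TSS. Chromosome 8 carried 13 of the 67 solute carrier peaks (19.4%), against 9.90% of all peaks, and 5 of these 13 were those of the single gene SLC17A8.

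Carriers placed with the vitamins had 7 peaks on 6 genes, none in a promoter and all at a fold of 4.84 or less. The group holds families SLC23 and SLC46 by family number, so a vitamin substrate need not hold for each gene. The genes M.coruscus_chr14_0702 and M.coruscus_chr12_1079 were named SLC23 by KEGG alone and had no transporter domain. The multivitamin transporter SLC5A6 was counted with family SLC5. The highest, 4.84 (2.62 to 8.34), was at Slc23a1 (M.coruscus_chr5_2529), an ascorbate transporter. SLC46A3 (M.coruscus_chr3_3135), of the family that includes the proton-coupled folate carrier, had the tallest pileup of all 67 peaks, 422 (383 to 464), and the largest −log10 q, 94.6. The fold of that peak was only 3.47 (3.15 to 3.81), because the input background reached 121, and its interval lay below the all-peak median. The second peak of the gene had a pileup of 63, a background of 19.6 and a fold of 3.11.

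**Figure D3:**
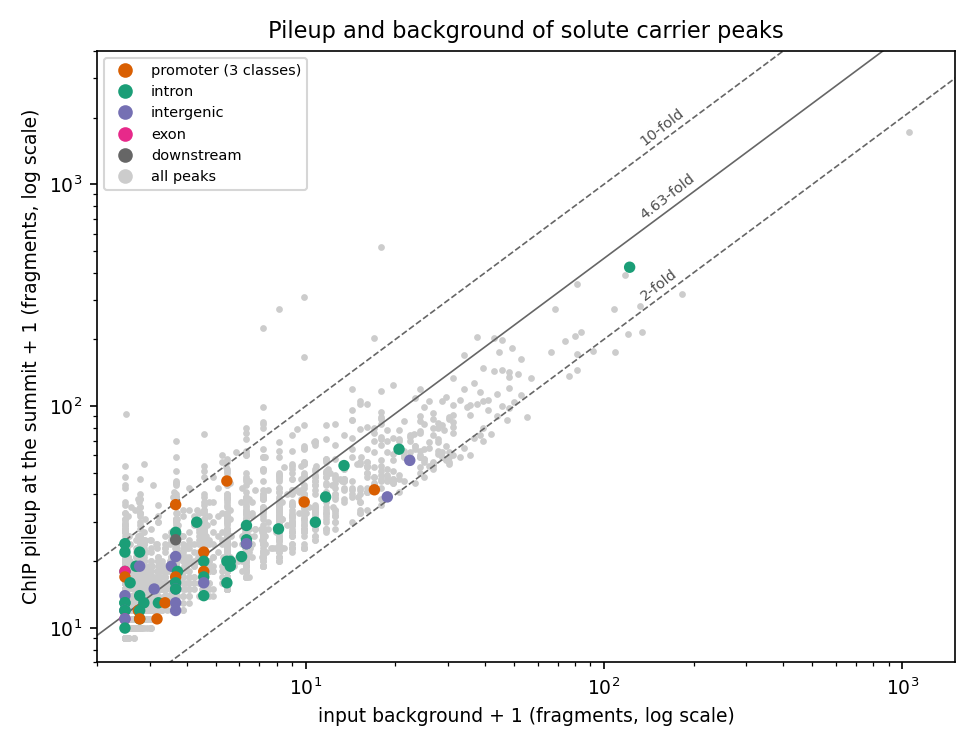
ChIP pileup plus 1 against input background plus 1 (fragments, both log scales) for the 67 solute carrier peaks, coloured by region, over all 3465 peaks in grey; lines mark folds of 10, 4.63 and 2. The peak with a pileup of 422 (SLC46A3) stands at the far right of the solute carriers, at a background of 121 and under the 4.63-fold line.

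Organic ion and drug carriers had 6 peaks on 6 genes. Beside the SLC22A15-like promoter, they included 2 genes matched to the organic cation transporter Orct, with intron peaks near the TSS at 471 bp (M.coruscus_chr8_0107, fold 5.24) and 1344 bp (M.coruscus_chr9_2701, fold 2.94). The organic anion transporters Slco4a1 (M.coruscus_chr3_3239) and Slco1a6 (M.coruscus_chr12_0188) had intergenic peaks of 5.35 and 4.09.

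Mitochondrial carriers had 3 peaks. The highest, with a fold of 6.95 (4.73 to 9.88) and a pileup of 29, lay in an intron of the gene matched to SLC25A16 (M.coruscus_chr10_1059), 1055 bp from the TSS. An intergenic peak of 6.84 at −3515 bp stood by a gene that KEGG named the mitochondrial dicarboxylate carrier and Swissprot named HID1 (M.coruscus_chr10_0613). Fatty acid transport proteins of family SLC27, which couple uptake to acyl-CoA synthesis, had 2 peaks, 6.81 (4.46 to 10.0) in the downstream class of Slc27a2 (M.coruscus_chr8_0606) and 5.64 (3.19 to 9.36) in the intergenic class at SLC27A4 (M.coruscus_chr2_2806). The 3 groups with a single intron peak each were the bicarbonate transporter-like SLC4A11 (M.coruscus_chr7_1886, 4.36), the nucleoside carrier Slc28a3 (M.coruscus_chr2_3111, 3.73) and the choline transporter-like slc44a2 (M.coruscus_chr2_0929, 3.07).

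**Figure D4:**
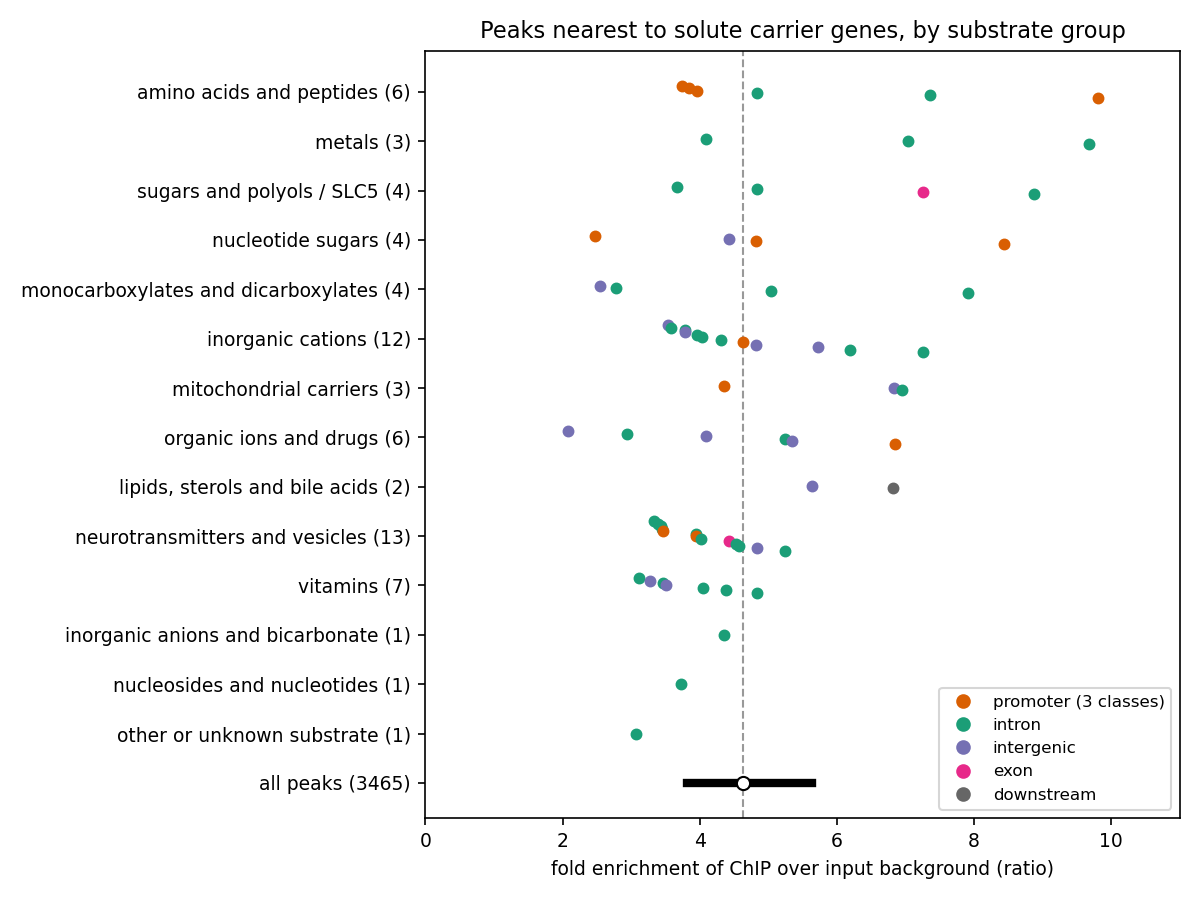
Fold enrichment (ratio) of each of the 67 solute carrier peaks by substrate group, coloured by region, with all 3465 peaks below as their median (4.63, open circle and dashed line) and interquartile range (bar). Carriers of the vitamin group (families SLC23 and SLC46) reach 4.84 and neurotransmitter carriers 5.24, with the choline transporter CHT1 placed in SLC5. Amino acid and peptide, metal, SLC5 and nucleotide sugar carriers each have a peak above 8. For amino acids and peptides that peak is the SLC15A5 match without a transporter domain, and 7.36 is the next.

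Most solute carrier genes had a single peak. There were 47 of 55 with 1 peak and 8 with 2 or more (14.5%), against 21.8% of all nearest genes. Another peak of any gene lay within 10 kb of 21 of the 67 (31.3%), against 34.9% of all peaks. Within each of the 8 genes the counting intervals of the folds overlapped, and the difference between peaks of 1 gene was not tested.

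**Figure D5:**
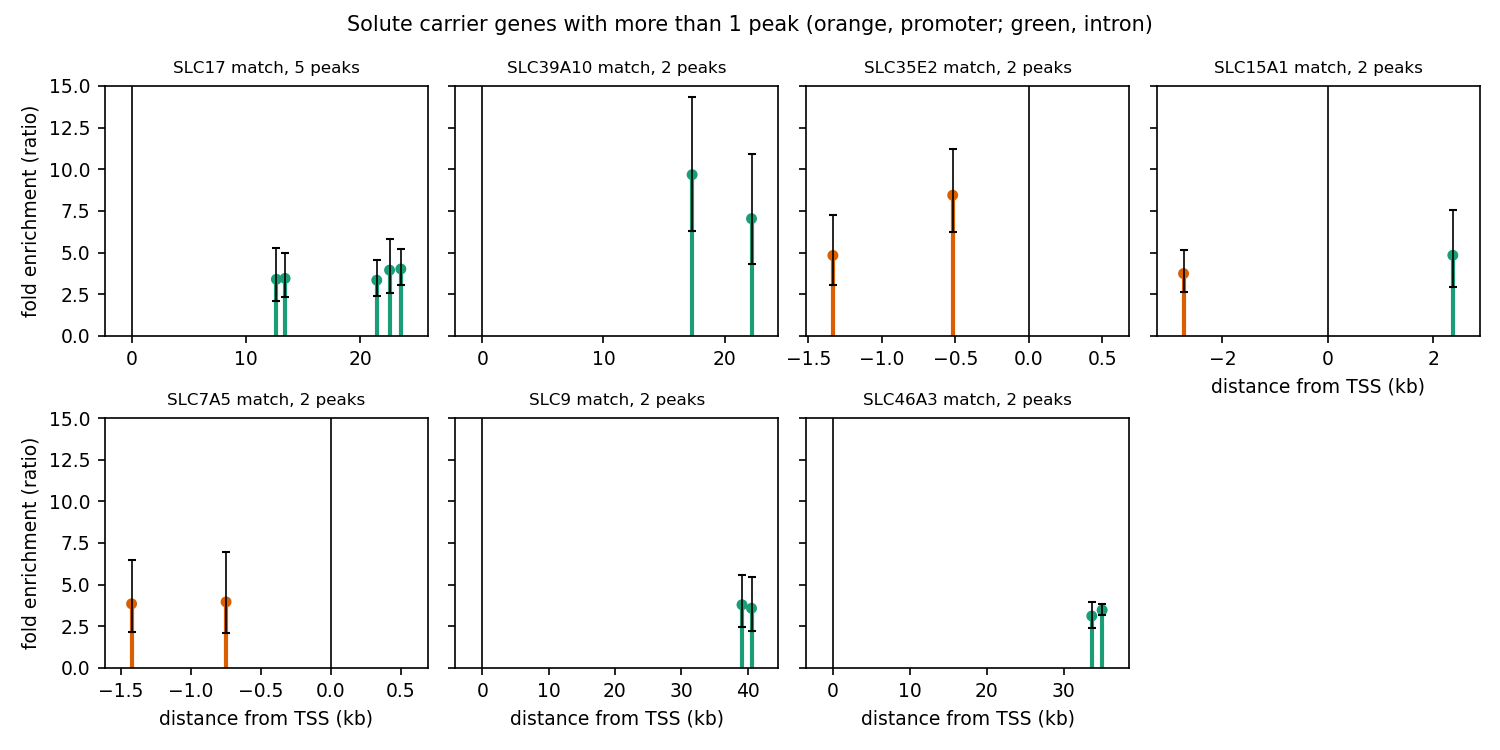
Fold enrichment (ratio) of each peak, with its 95% counting interval, against distance from the TSS (kb, own scale in each panel) for 7 of the 8 solute carrier genes with more than 1 peak. The 5 SLC17A8 peaks span folds of 3.34 to 4.01 within introns, and SLC35E2 and SLC7A5 have both their peaks upstream of the TSS.

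A chosen list of solute carriers, some of them known Nrf2 targets in mammals, was looked up by name. The tie to Nrf2 was not checked for each entry. None of the 3465 peaks was assigned to a gene named SLC7A11 (the cystine/glutamate exchanger), SLC3A2 (its heavy chain, shared with LAT1), SLC40A1 (ferroportin, the iron exporter), SLC48A1 (a heme carrier), SLC2A1 (a glucose carrier), SLC25A39 (a mitochondrial glutathione carrier) or any SLC30 zinc exporter. SLC39 and SLC30 were searched as whole families and the others as single genes. The SLC39 zinc importers had 3 peaks on the 2 genes described above, and whether those genes answer to Nrf2 was not tested. The list holds only genes nearest to a peak, so how often a solute carrier gene has none is not known. The search was by name, and 2643 of the 3465 peaks had a named gene, so such a gene could also stand unnamed or under another name in the list.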

How the data were processed

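Nrf2 ChIP-seq of Mytilus coruscus digestive gland comprised 1 ChIP library and 1 input library. The submitters' processing notes and the study's methods name FastQC and Trimmomatic (0.36) for read quality and trimming, Bowtie2 (2.5.1) for alignment to an unpublished genome of the species, and MACS3 (3.0.0a7) for peak calling. The q threshold and duplicate handling were not given in the sources used here. In the deposited table, pileup is the fragment signal at the summit, fold enrichment is a ratio to the input background, and q-values are given as −log10. The authors also deposited a signed distance to the TSS in bp, treated as a score, with region classes, nearest genes and database names.

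The background was derived as (pileup + 1) / fold − 1. Wilson 95% intervals were computed for shares, order-statistic intervals for medians, and exact Poisson intervals of the pileup for folds, with the background taken as known. Distances ran from the summit in 556 of 556 genes with several peaks. Families and substrates followed the KEGG name, or Swissprot where KEGG named none. Genes named in the text were those with a promoter peak, the 10 highest folds, those with 2 or more peaks, the highest fold of each substrate group, and SLC35E2, and further members were added after their values were seen. Some genes that this rule picks are not reported here by name. The members and lists were chosen with earlier results of these data known, and the 22 transporter domain names were listed after seeing the table. Alternatives comprised stricter or other peak, name and promoter definitions. Scripts ran in Python (3.11.15) with SciPy (1.17.1), NumPy (2.4.6), Matplotlib (3.10.9) and pandas (2.3.3), and were tested on simulated data.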

Additional observations from a re-analysis of the deposited data

How the results depend on the processing

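Across 13 settings, 76 of 80 values were graded the same as the value reported and 4 as moved. The grade was wide for counts: it took in 51 peaks in place of 67 and 37 genes in place of 55. The 4 that moved follow. With only peaks of at least 4-fold enrichment, 40 of the 67 solute carrier peaks were left, their median fold was 4.94, and 3 genes in place of 8 had 2 or more peaks. With promoters taken as the 1 kb class alone, the promoter share was 4.48%. The lower counts of peaks and genes come with fewer peaks kept. The median fold was bound to rise, because the cut removes all lower folds, and over all peaks it rose to 5.24. The promoter shift comes with a narrower definition of a promoter over the same 67 peaks. The promoter share of the solute carriers was above that of all peaks in 13 of 13 settings. These drew largely on the same peaks and so are not separate support. With the 1 kb class alone the interval (1.53 to 12.4) held the 2.42% of all peaks. The promoter share was 17.2% over genes with a transporter domain, 16.4% with 1 peak per gene and 15.4% without SLC35E2. In these 3 settings the share of all peaks was left at 7.24%, and apart from 1 peak per gene they were chosen after seeing the data. Pileups of 9 to 20 fragments leave wide counting intervals, and the spread between animals or between immunoprecipitations cannot be given with 1 library.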

Other observations

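Transporters outside the solute carrier names were described in the same way. ABC transporters, which are driven by ATP, had 10 peaks on 9 genes, with 8 intron peaks, 1 promoter peak and a median fold of 4.93. The promoter peak and 1 intron peak were at a gene that Swissprot named a coiled-coil domain protein (M.coruscus_chr2_0267). Genes with a transport ATPase in their name had 6 peaks on 6 genes, 5 in introns, with a median fold of 5.44, and 1 of them was named a protein that interacts with such an ATPase (M.coruscus_chr12_1721). An aquaporin gene had 2 peaks, both intergenic. A further 20 peaks on 14 genes carried other transporter names, 13 of them intergenic and 1 in a promoter, with a median fold of 5.26. The highest of these, 10.9, was at a gene matched to MFSD6 (M.coruscus_chr2_1085).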
